A study of Homo sapiens with 6 samples.

Results

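A set of 10 genes that restrain signalling through the mitogen-activated protein kinases (MAPKs) was followed in HDQ-P1 cells treated with Y-320. The genes were chosen by name, as members of these families, with earlier results of these data known, and no measured value enters the rule: 6 dual-specificity phosphatase genes (DUSP1, DUSP4, DUSP5, DUSP6, DUSP10 and DUSP16), 3 Sprouty genes (SPRY1, SPRY2 and SPRY4) and SPRED1. All 10 were found among the 40295 Ensembl gene identifiers of the deposited table, each on 1 row. HDQ-P1 is an established human breast carcinoma line, and Y-320 is a small molecule studied as an enhancer of premature termination codon readthrough. RNA-seq compared 3 libraries of cells given 1 μM Y-320 for 48 h with 3 libraries of untreated cells, for which no vehicle is named. The comparison asks which transcripts change after exposure to the compound. Nothing in the labels says whether the 3 libraries of a group came from separate cultures, so the p-values measure the spread between these libraries only, which may be technical.

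MAPKs such as ERK, JNK and p38 are switched on when an upstream kinase phosphorylates a threonine and a tyrosine in their activation loop, and dual-specificity MAPK phosphatases remove both phosphates. Several of these phosphatase genes are themselves transcribed in response to MAPK activity, which makes them negative feedback regulators. DUSP1, DUSP4 and DUSP5 encode nuclear, inducible phosphatases, DUSP6 encodes a cytoplasmic phosphatase selective for ERK, and DUSP10 and DUSP16 encode phosphatases that act mainly on JNK and p38. Sprouty and SPRED proteins act further upstream and restrain the signal from receptor tyrosine kinases to the RAS-ERK cascade. Transcripts alone were measured here, not protein, phosphorylation or kinase activity.

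The genes lie on separate chromosomes or far apart, and all 10 are protein-coding. In GENCODE 44 on hg38, DUSP1 (ENSG00000120129) spans 172768096 to 172771195 on chromosome 5 and SPRY4 (ENSG00000187678) 142310427 to 142326455 on the same chromosome, both on the minus strand. DUSP6 (ENSG00000139318) spans 89347235 to 89352501 and DUSP16 (ENSG00000111266) 12473282 to 12562863 on the minus strand of chromosome 12. DUSP4 (ENSG00000120875) spans 29333064 to 29350684 on the minus strand of chromosome 8, and DUSP5 (ENSG00000138166) 110497907 to 110511533 on the plus strand of chromosome 10. DUSP10 (ENSG00000143507) spans 221701424 to 221742089 on the minus strand of chromosome 1. SPRY1 (ENSG00000164056) spans 123396795 to 123403760 on the plus strand of chromosome 4, SPRY2 (ENSG00000136158) 80335976 to 80341126 on the minus strand of chromosome 13, and SPRED1 (ENSG00000166068) 38252836 to 38357249 on the plus strand of chromosome 15.

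The libraries held 21045401 to 22740535 estimated counts, and the 10 genes had 51 to 2972 counts per library. Values are given as normalized CPM, a gene's counts relative to the library's total after TMM scaling, so each is a share of that library's transcripts and not an amount per cell. In bulk libraries, fewer cells that hold a transcript and less of it per cell cannot be told apart. All 6 epithelial markers examined were detected, with a summed level of 10916 to 11425 normalized CPM in untreated and 6834 to 6895 in treated libraries. The 4 basal epithelial markers summed to 794 to 853 and 325 to 359.7, and the 5 fibroblast markers to 98.8 to 118.0 and 45.6 to 59.7. The 5 leukocyte markers summed to 1.34 to 2.14 and 1.95 to 2.11, and the 4 endothelial markers to 17.7 to 19.3 and 14.3 to 18.3. Of the 6 epithelial markers 5 fell and 1, EPCAM, rose, all 4 basal markers fell, and of the 5 fibroblast markers 2 fell and 3 did not pass the test. Of 3 endothelial markers tested PECAM1 rose and CDH5 fell, and neither of the 2 leukocyte markers tested passed the test. EPCAM, PECAM1 and CDH5 were named after their values were seen. The part of these markers in the results that follow was not tested.

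Treatment with Y-320 went with more transcript of 8 of the 10 genes. All 6 phosphatase genes rose, most of all DUSP5 and DUSP6, and so did SPRY2 and SPRY4. SPRY1 fell, and SPRED1 did not pass the test. All 10 genes passed the filter on low counts and were tested together with 16580 genes by edgeR's quasi-likelihood test at an adjusted p under 0.05, where 26.2% of all genes tested were higher, 25.4% lower and 51.5% changed in either direction. The median log2 fold change was 0.66 over the 10 genes and 0.00 over all genes tested. A rise of at least 0.5 on the log2 scale that also had an adjusted p under 0.05 was found for 7 of the 10 genes. The same held for 8.44% of all genes tested. The 3 treated libraries were each higher than all 3 untreated ones for 8 of the 10 genes and for 29.8% of all genes tested, and each lower for 1 of the 10 genes and for 29.4% of all genes tested.

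**Figure D1:**
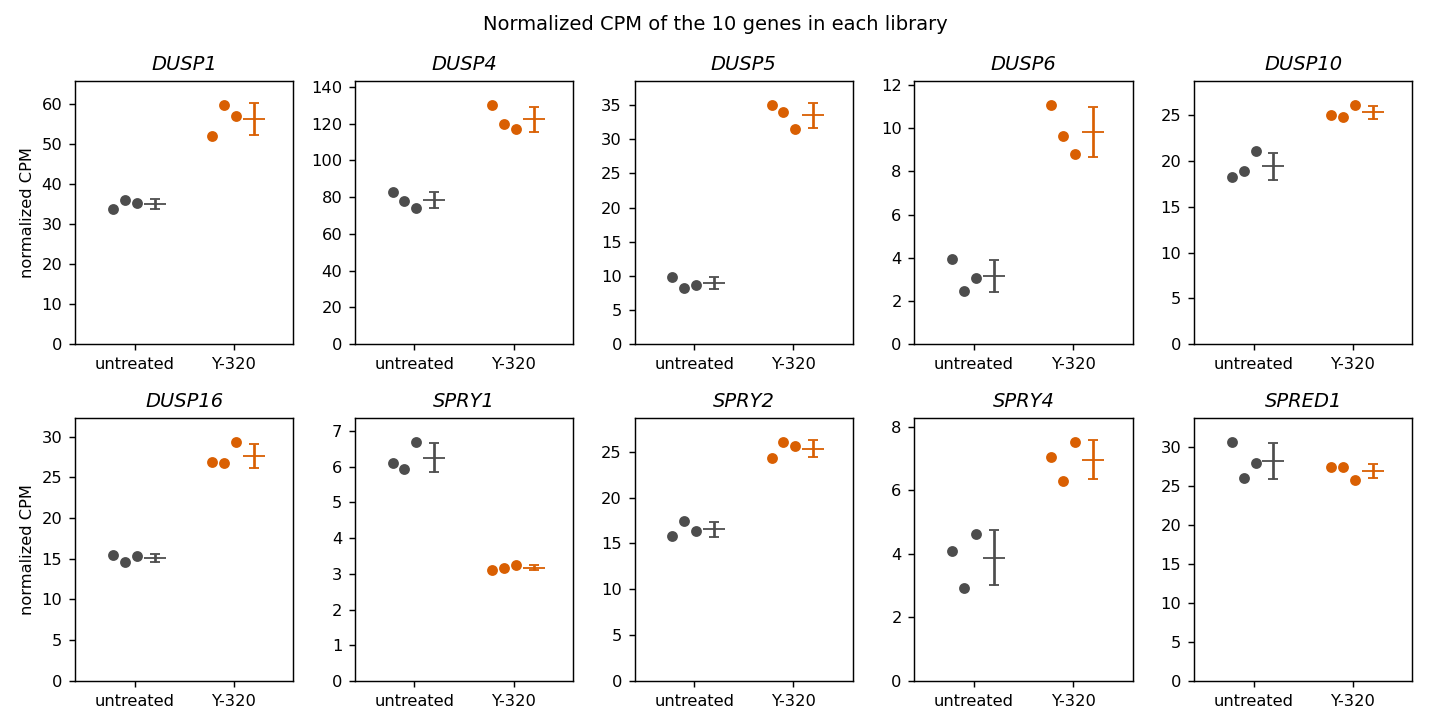
Normalized CPM of the 10 genes, with 1 point per library and the mean with its SD beside each group of 3 (grey untreated, orange 1 μM Y-320 for 48 h), each vertical axis starting at 0. The groups are apart for every gene except SPRED1, and SPRY1 is the gene whose treated libraries lie below.

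Among the nuclear phosphatases, DUSP5, which is selective for ERK, had the largest change of the 10 genes. It stood at 9.88, 8.30 and 8.61 normalized CPM in the untreated libraries, in the order of their replicate numbers 1, 2 and 3, and at 35.01, 34.0 and 31.5 in the treated ones. The lowest treated library was thus far above the highest untreated one. The means were 8.93 ± 0.836 and 33.5 ± 1.81 (SD over n = 3 libraries each), a 3.75-fold difference, and the log2 fold change of 1.91 (SE 0.072) had an edgeR adjusted p of 1.23e-08. Only 82 of the 16580 genes tested had a larger log2 fold change.

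DUSP4, also known as MKP-2, was the most abundant of the 10 genes in CPM before and after treatment. Its normalized CPM was 83.0, 77.7 and 74.3 in the untreated libraries and 130.1, 119.9 and 117.2 in the treated ones. Every treated value exceeded every untreated value, although the rise was smaller than that of DUSP5. From 78.3 ± 4.42 to 122.4 ± 6.77 (SD over n = 3 libraries each) it rose 1.56-fold, with a log2 fold change of 0.64 (SE 0.049) at an adjusted p of 1.86e-06 from edgeR.

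DUSP1, or MKP-1, is an immediate-early gene whose product acts on p38, JNK and ERK. Normalized CPM of DUSP1 was 33.8, 36.1 and 35.4 untreated and 52.0, 59.8 and 57.1 with Y-320. The groups were again apart, with the treated libraries spread more widely than the untreated ones. The means of 35.1 ± 1.18 and 56.3 ± 3.96 (SD over n = 3 libraries each) differed 1.60-fold, a log2 fold change of 0.68 (SE 0.054) with an adjusted p of 2.65e-06 from edgeR.

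RefSeq promoter windows (GRCh38.p14, 250 bases before to 50 bases after an annotated start) were at hand for 8 of the 10 genes in 12 windows, and had no entry for DUSP4 and DUSP5. They were searched on both strands for 7 motifs. The cyclic AMP response element TGACGTCA occurred in the window of DUSP1 alone among the 8 genes and in 1.85% of all 35116 windows. ACGTG, the core of a hypoxia response element, was also found in the DUSP1 window, on both strands of overlapping letters, and in 21.4% of all windows. CCGGAAG, an ETS site, was found in 1 of the windows of SPRY1 and in 10.3% of all windows. TGANTCA (AP-1, in 7.71% of windows), TGATGNAA (an ATF4 composite element, 3.62%), the CArG box (1.29%) and the NF-kB consensus (11.3%) matched none of the 12 windows. A match describes letters in a window and not a site in use. The 250 bases before the start are shown for DUSP1, at chr5:172771196-172771445 on the minus strand, with TGACGTCA in capitals 125 to 118 bases before the start, and for the SPRY1 window with the ETS match, since SPRY1 is the gene that moved against the others. The latter lies at chr4:123398136-123398385 on the plus strand, with CCGGAAG in capitals 67 to 61 bases before the start.
DUSP1: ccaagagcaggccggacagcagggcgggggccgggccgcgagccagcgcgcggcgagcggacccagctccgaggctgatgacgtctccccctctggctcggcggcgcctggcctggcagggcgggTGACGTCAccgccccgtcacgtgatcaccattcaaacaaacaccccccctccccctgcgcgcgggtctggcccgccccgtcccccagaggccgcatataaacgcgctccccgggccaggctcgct
SPRY1: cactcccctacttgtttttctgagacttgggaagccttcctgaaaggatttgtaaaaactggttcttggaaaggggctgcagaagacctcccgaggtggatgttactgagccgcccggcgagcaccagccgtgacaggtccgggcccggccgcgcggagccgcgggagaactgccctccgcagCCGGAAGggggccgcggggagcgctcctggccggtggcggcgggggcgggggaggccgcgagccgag

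DUSP6, the cytoplasmic ERK phosphatase also called MKP-3, had the second largest rise. It was scarce in untreated cells, with 87, 51 and 68 counts, against 253, 210 and 195 in treated cells. Scaled to normalized CPM, these were 3.94, 2.45 and 3.08 untreated and 11.1, 9.61 and 8.80 treated, with no overlap. The means were 3.16 ± 0.751 and 9.83 ± 1.15 (SD over n = 3 libraries each), a 3.11-fold difference. The log2 fold change of 1.63 had an SE of 0.16, wider than that of the more abundant phosphatases, and an adjusted p of 1.14e-05 from edgeR. With single libraries left out it ranged from 1.48 to 1.82. The exons of DUSP6 overlap an antisense non-coding gene, ENSG00000274021, which shares 26.3% of the 31-base words of its transcripts. Whether the counting used strand is not given in the sources used here, so reads from the shared part cannot be told apart.

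Both phosphatases that act mainly on JNK and p38 rose. DUSP10 (MKP-5) was at 18.2, 18.9 and 21.1 normalized CPM in untreated libraries and at 25.1, 24.8 and 26.1 with Y-320. The treated libraries lay close together, above an untreated group that was more spread. The rise from 19.4 ± 1.51 to 25.3 ± 0.698 (SD over n = 3 libraries each) was 1.30-fold, the smallest of the 8 increases, with a log2 fold change of 0.38 (SE 0.061) and an edgeR adjusted p of 0.000376.

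DUSP16 (MKP-7) was at 15.45, 14.55 and 15.4 normalized CPM untreated and at 26.9, 26.7 and 29.4 with Y-320. Both groups were tight and far apart. The means of 15.1 ± 0.504 and 27.7 ± 1.49 (SD over n = 3 libraries each) differed 1.83-fold, with a log2 fold change of 0.87 (SE 0.057) at an adjusted p of 6.02e-07 from edgeR. A further row, ENSG00000280962, which was matched to no gene name, held the same values as DUSP16 in all 6 libraries. The sequence of that row was not compared here, so whether reads of DUSP16 were divided between both rows, which would make its level too low, was not tested. Summing rows of equal values cannot move a fold change, so the log2 fold change of 0.87 after summing says nothing further about it.

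SPRY2, an adaptor that restrains receptor tyrosine kinase signalling, was the most abundant Sprouty gene. It was at 15.8, 17.4 and 16.4 normalized CPM untreated and at 24.3, 26.1 and 25.6 with Y-320, without overlap. From 16.5 ± 0.812 to 25.3 ± 0.934 (SD over n = 3 libraries each) it rose 1.53-fold, a log2 fold change of 0.62 (SE 0.055) with an edgeR adjusted p of 6.50e-06.

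SPRY4, a Sprouty protein that like SPRY2 is known as a product of an ERK-responsive gene, was scarcer. Its estimated counts of 90.6, 61.0 and 102.1 compared with 161.2, 137.9 and 167.0 after treatment, or 4.11, 2.93 and 4.63 against 7.05, 6.31 and 7.54 normalized CPM. The untreated libraries differed among themselves, with replicate 2 the lowest, but all lay below the treated libraries. The means were 3.89 ± 0.871 and 6.97 ± 0.618 (SD over n = 3 libraries each), a 1.79-fold difference. Its log2 fold change of 0.84 (SE 0.16) had an edgeR adjusted p of 0.00120 and ranged from 0.67 to 0.98 with single libraries left out.

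SPRY1 moved the other way. Its counts of 135, 124 and 148 without the compound compared with 71, 69 and 72 after it, which is 6.12, 5.95 and 6.71 against 3.11, 3.16 and 3.25 normalized CPM. The treated libraries were nearly equal and lay below every untreated library. The mean fell from 6.26 ± 0.399 to 3.17 ± 0.0718 (SD over n = 3 libraries each), to 0.507 of the untreated level. The log2 fold change of SPRY1 was -0.98 (SE 0.11), with an adjusted p of 3.50e-05 from edgeR, and 480 of the 16580 genes tested had a smaller one.

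SPRED1, which brings neurofibromin to the membrane to turn RAS off, was at 30.7, 26.1 and 28.0 normalized CPM untreated and at 27.5, 27.5 and 25.85 with Y-320. The groups overlapped, and the difference between the means of 28.25 ± 2.33 and 26.95 ± 0.955 (SD over n = 3 libraries each) was smaller than the SD of the untreated libraries. Its log2 fold change of -0.07 (SE 0.061) had an edgeR adjusted p of 0.379. The 95% interval of that change ran from -0.21 to 0.07.

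**Figure D2:**
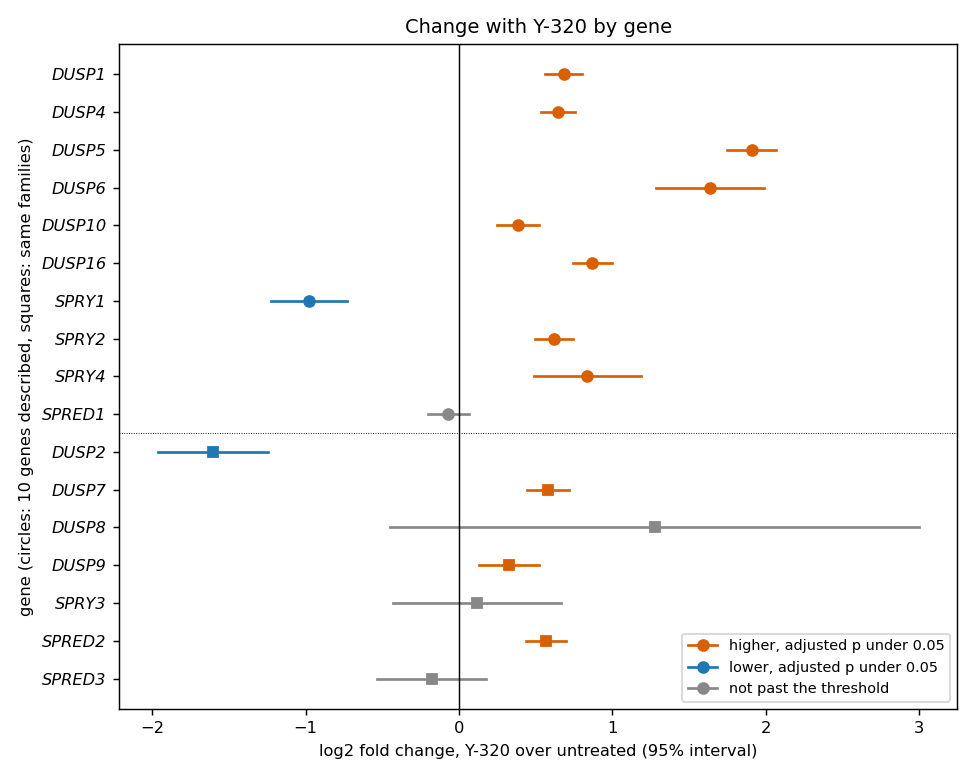
Log2 fold change of Y-320 over untreated libraries with its 95% interval from edgeR for the 10 genes (circles) and the 7 other genes of both families (squares), coloured by whether the adjusted p was under 0.05. DUSP5 at 1.91 and DUSP6 at 1.63 lie farthest right, and SPRY1 at -0.98 and DUSP2 at -1.60 farthest left.

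Within the Sprouty genes the balance shifted from SPRY1 to SPRY2. The ratio of SPRY1 to SPRY2 counts was 0.387, 0.342 and 0.410 untreated and 0.128, 0.121 and 0.127 treated. Among nuclear phosphatases, the ratio of DUSP5 to DUSP4 counts was 0.119, 0.107 and 0.116 untreated and 0.269, 0.284 and 0.269 treated. Both ratios were apart between the groups. They are 2 of 5 ratios computed, and for each of the 5 the two-sided exact permutation test gave p = 0.1, also after adjustment, the smallest p that 3 libraries against 3 allow. Summed over the 6 phosphatase genes, normalized CPM was 160.1 ± 3.675 untreated and 275.0 ± 4.97 with Y-320 (SD over n = 3 libraries each), a 1.72-fold difference (two-sided exact permutation test, p = 0.1). The sum of SPRY1, SPRY2, SPRY4 and SPRED1 differed less, at 54.9 ± 2.29 and 62.4 ± 0.547 (SD over n = 3 libraries each), a 1.14-fold difference without overlap (two-sided exact permutation test, p = 0.1).

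Levels of different genes were compared as normalized CPM per kb of exon, with the exon length taken from GENCODE. In untreated cells the order was DUSP1 at 17.4 ± 0.588, DUSP4 at 10.8 ± 0.608, DUSP10 at 6.87 ± 0.534, SPRY2 at 5.14 ± 0.253, SPRED1 at 3.65 ± 0.301, DUSP5 at 3.52 ± 0.330, DUSP16 at 2.12 ± 0.0706, SPRY1 at 1.58 ± 0.101, DUSP6 at 0.818 ± 0.1945 and SPRY4 at 0.593 ± 0.133 CPM per kb (SD over n = 3 libraries each). The libraries of SPRED1 and DUSP5 overlapped in this order, as did those of DUSP6 and SPRY4, while the other neighbours were apart. With Y-320, DUSP1 and DUSP4 kept the highest levels per kb, at 28.0 ± 1.97 and 16.8 ± 0.931, and DUSP5 came next at 13.2 ± 0.714. SPRY1 became the lowest, at 0.800 ± 0.0181, below SPRY4 at 1.06 ± 0.0943 CPM per kb. With DUSP16 taken from its own row alone, no neighbours overlapped in the treated libraries. Of the summed level per kb of the 6 phosphatase genes, DUSP5 held 8.48% ± 0.754 untreated and 18.0% ± 0.895 treated (SD over n = 3 libraries each), while DUSP10 went from 16.5% ± 1.28 to 12.2% ± 0.491. With both rows of DUSP16 counted, its level per kb was 4.24 ± 0.141 untreated and 7.76 ± 0.418 with Y-320, which would place it between SPRY2 and SPRED1 in untreated cells and beside SPRY2, at 7.89 ± 0.291 and overlapping with it, in treated cells.

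**Figure D3:**
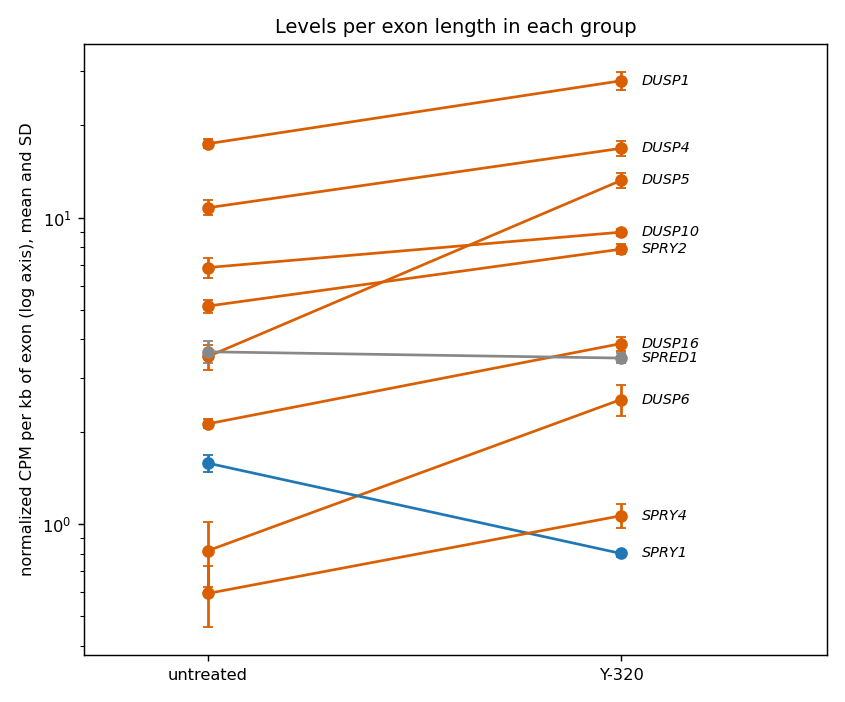
Normalized CPM per kb of exon for each of the 10 genes, as the mean of 3 libraries with its SD, on a log axis, with a line from untreated to Y-320 (orange higher, blue lower, grey not past the threshold). The line of DUSP5 crosses those of DUSP10, SPRY2 and SPRED1 on its way from 3.52 to 13.2, and that of SPRY1 falls to the lowest level.

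The 7 other genes of both families did not all move together. DUSP2, a nuclear inducible phosphatase like DUSP5, was at 8.06, 7.43 and 7.97 normalized CPM untreated and at 3.06, 1.83 and 2.80 with Y-320. Every treated value was below every untreated value, and the log2 fold change of -1.60 (SE 0.16) had an adjusted p of 1.51e-05 from edgeR. The ratio of DUSP2 to DUSP5 counts thus went from 0.880 ± 0.0567 to 0.0767 ± 0.0198 (SD over n = 3 libraries each). DUSP7 and DUSP9, which like DUSP6 are cytoplasmic ERK phosphatases, rose by 0.58 (SE 0.062) and 0.33 (SE 0.0875) on the log2 scale, with edgeR adjusted p of 2.34e-05 and 0.00962. The ratio of DUSP6 to DUSP7 counts went from 0.270 ± 0.0689 to 0.559 ± 0.0452 (SD over n = 3 libraries each).

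SPRED2, which like SPRED1 restrains RAS-ERK signalling, rose where SPRED1 did not pass the test. Normalized CPM of SPRED2 was 32.0, 27.2 and 29.0 untreated and 44.9, 44.3 and 41.7 treated, a log2 fold change of 0.57 (SE 0.058) with an edgeR adjusted p of 1.69e-05. The ratio of SPRED1 to SPRED2 counts was 0.959, 0.957 and 0.963 in the untreated libraries and 0.613, 0.620 and 0.620 in the treated ones, with no overlap. SPRED3 and SPRY3 did not pass the test, with log2 fold changes of -0.18 (95% interval -0.54 to 0.18) and 0.12 (-0.43 to 0.66). DUSP8, a further phosphatase of JNK and p38, stood at 19.0, 15.15 and 19.3 estimated counts before and 112.2, 12.2 and 9.86 after treatment. Its log2 fold change of 1.28 (SE 0.77, edgeR adjusted p = 0.199) rested on Y-320 replicate 1 and was -0.70 without that library, and its row has the same values as another row with no gene name.

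Genes of the RAS-ERK cascade, which these proteins restrain, had small fold changes. Of 23 genes of the RAS-ERK cascade, 9 rose, 3 fell and 11 did not pass the test, with a median log2 fold change of 0.02 and none beyond 0.54 in size. The counts were 7 higher and 7 lower with upper-quartile scaling, and 6 higher and 5 lower without untreated replicate 2. In the main test, 39.1% of the 23 genes were higher, beside 26.2% of all genes tested. The 3 of 23 that were lower stand beside 25.4% of all genes tested. Over all genes tested, the median size of the log2 fold change was 0.213. The largest rise was that of RRAS, a RAS-related GTPase, at 0.54 (SE 0.052, edgeR adjusted p = 1.11e-05), and MAP2K1, which encodes the ERK kinase MEK1, rose by 0.24 (SE 0.031, edgeR adjusted p = 9.12e-05). MAPK3, which encodes ERK1, was at 53.5 ± 1.90 untreated and 50.5 ± 3.55 normalized CPM treated (SD over n = 3 libraries each) and did not pass the test.

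Of 24 genes of the JNK and p38 cascades, 7 rose, 8 fell and 9 did not pass the test, with a median log2 fold change of 0.03. These shares, 29.2% higher and 33.3% lower, are near the 26.2% and 25.4% of all genes tested. MAP2K6, which encodes the p38 kinase MKK6, fell most, from 22.8 ± 1.62 to 6.68 ± 0.826 normalized CPM (SD over n = 3 libraries each), a log2 fold change of -1.78 (SE 0.091, edgeR adjusted p = 1.02e-07). MAPK13, which encodes p38δ, rose by 0.50 (SE 0.026, edgeR adjusted p = 1.05e-07) and MAPK11, which encodes p38β, by 0.44 (SE 0.070, edgeR adjusted p = 0.000420). The scaffold gene MAPK8IP1 rose by 0.60 (SE 0.0585, edgeR adjusted p = 1.19e-05). MAPK9, which encodes JNK2, was at 76.6 ± 3.15 and 75.9 ± 1.86 normalized CPM and did not pass the test.

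**Figure D4:**
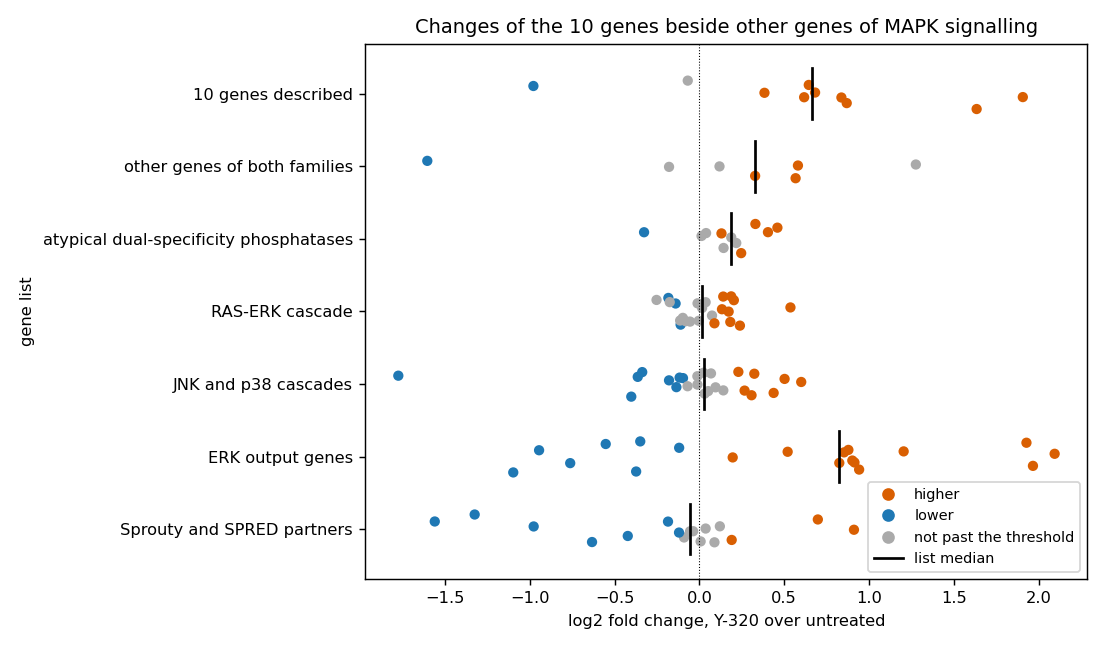
Log2 fold change of Y-320 over untreated libraries for each gene tested in 7 lists, with 1 point per gene (orange higher, blue lower, grey not past the threshold) and a bar at each list's median. The medians lie at 0.66 for the 10 genes, 0.02 for the RAS-ERK cascade, 0.03 for the JNK and p38 cascades and 0.82 for the ERK output genes.

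Other genes known to be transcribed in response to ERK activity moved in both directions. Of 20 such genes, 12 rose and 7 fell, with a median log2 fold change of 0.82, and IER3 was too low to be tested. Among those tested, 63.2% were higher and 36.8% lower, beside 26.2% and 25.4% of all genes tested. FOSL1, which encodes the AP-1 subunit FRA-1, went from 12.4 ± 0.669 to 52.8 ± 1.25 normalized CPM (SD over n = 3 libraries each), a log2 fold change of 2.09 (SE 0.049, edgeR adjusted p = 7.66e-10). HBEGF, a ligand of the EGF receptor, rose by 1.97 (SE 0.12, edgeR adjusted p = 4.09e-07), the secreted factor gene GDF15 by 1.93 (SE 0.040, edgeR adjusted p = 5.24e-10) and KLF6 by 1.20 (SE 0.027, edgeR adjusted p = 7.52e-10). EPHA4, a receptor tyrosine kinase gene, fell from 33.8 ± 0.789 to 15.8 ± 1.07 normalized CPM (SD over n = 3 libraries each), with a log2 fold change of -1.10 (SE 0.055, edgeR adjusted p = 8.43e-08). ETV1, ETV4, ETV5, EGR1, EPHA2 and CCND1 were named after their values were seen. The ETS factor genes ETV4 and ETV5 rose by 0.82 (SE 0.079, edgeR adjusted p = 1.09e-05) and 0.91 (SE 0.083, edgeR adjusted p = 6.91e-06). ETV1, a further ETS factor gene, went the other way, at -0.35 (SE 0.12, edgeR adjusted p = 0.0300), with groups that overlapped. EGR1 and EPHA2 also fell, with log2 fold changes of -0.55 (SE 0.084, edgeR adjusted p = 0.000299) and -0.76 (SE 0.042, edgeR adjusted p = 1.63e-07). CCND1, which encodes cyclin D1, went from 500.9 ± 16.5 to 260.0 ± 14.5 normalized CPM (SD over n = 3 libraries each), a log2 fold change of -0.95 (SE 0.0395, edgeR adjusted p = 2.545e-08).

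Genes whose products bind or regulate Sprouty and SPRED proteins moved in both directions. Of 17 such genes, 3 rose, 7 fell and 7 did not pass the test, with a median log2 fold change of -0.06. As shares, 17.6% were higher and 41.2% lower, beside 26.2% and 25.4% of all genes tested. FGFR2 and FGFR3, which encode fibroblast growth factor receptors that Sprouty proteins restrain, fell by 1.56 (SE 0.12, edgeR adjusted p = 1.92e-06) and 1.33 (SE 0.12, edgeR adjusted p = 8.29e-06) on the log2 scale. FGFR4 fell less, with a log2 fold change of -0.42 (SE 0.089, edgeR adjusted p = 0.00245), and FGFR1 did not pass the test, at 0.12 (SE 0.052). FGFR1 and FGFR4 were named after their values were seen. CAV1, which encodes caveolin-1, a binding partner of Sprouty proteins, went from 2507 ± 41.0 to 1273 ± 12.5 normalized CPM (SD over n = 3 libraries each), a log2 fold change of -0.98 (SE 0.019, edgeR adjusted p = 3.64e-10). SIAH2, a ubiquitin ligase that targets SPRY2, rose by 0.91 (SE 0.036, edgeR adjusted p = 1.62e-08), and the kinase gene TESK1, whose product binds SPRY4, by 0.70 (SE 0.049, edgeR adjusted p = 1.025e-06).

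The atypical dual-specificity phosphatases are a related family, listed here together with STYX and STYXL1. Of 16 such genes, 11 were tested, of which 5 rose, 1 fell and 5 did not pass the test, with a median log2 fold change of 0.19 and none beyond 0.46 in size. Of those tested, 45.5% were higher and 9.09% lower, beside 26.2% and 25.4% of all genes tested. DUSP3 rose by 0.46 (SE 0.034, edgeR adjusted p = 1.53e-06) and DUSP12 by 0.40 (SE 0.055, edgeR adjusted p = 0.000140). DUSP19 had a log2 fold change of -0.33 (SE 0.12, edgeR adjusted p = 0.0468), a call that was lost when any single library was left out, with DESeq2, with a replicate block, without the filter on low counts and with scaling to library totals.

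The genes most like DUSP4 over the 6 libraries, by the root mean square difference of log2 normalized CPM centred on the untreated mean, were DNAAF3 (0.022), NDRG4 (0.0305) and WDR24 (0.033) among 11564 named genes whose mean reached 5 CPM, and their log2 fold changes were 0.62, 0.635 and 0.63. For SPRED1, the most abundant in CPM of SPRY1, SPRY2, SPRY4 and SPRED1 over the 6 libraries, they were KIF3A (0.032), GJC1 (0.032) and BAGE2 (0.033), whose log2 fold changes of -0.05, -0.09 and -0.09 stand beside -0.07 for SPRED1. This measure includes the change with treatment, so the similar fold changes follow from how the genes were picked.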

How the data were processed

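Per the labels, 3 untreated and 3 Y-320 libraries of HDQ-P1 RNA were sequenced. The authors deposited estimated counts per gene, not normalized, and the submitters' processing notes name kallisto 0.46.1 and the build hg38 (GRCh38). How transcripts were summed to genes is not given in the sources used here. Of 40295 identifiers, 35390 matched a gene name.

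Estimated counts were rounded and filtered by filterByExpr (minimum 10 counts, 15 in total), scaled by TMM and fitted with edgeR 4.0.16 in R 4.3.3, without a block. Benjamini-Hochberg adjustment covered all 16580 genes tested, at a threshold of 0.05. SE is the log2 fold change over the root of the F statistic, and intervals are 95%. The fit was tested on simulated data. DESeq2 1.42.0 and limma-voom (limma 3.58.1) served as other tests, beside other filters, scalings, thresholds, unrounded counts, a replicate block and leaving out each library. Single values were compared by exact permutation with scipy 1.17.1. The 10 genes, the lists and the naming rule were chosen with earlier results of these data known. The rule names the 10 genes, their 7 relatives, core kinases, up to 5 called genes per list with the largest change and a mean of at least 1 CPM, and the 3 genes most like DUSP4 and SPRED1. A count of 3, the limit that a count of 0 allows, is 0.132 to 0.143 CPM, for counting error only.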

Additional observations from a re-analysis of the deposited data

How the results depend on the processing

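Under 15 or 16 alternatives per gene, 151 in all, each of the 10 genes kept its direction and its side of the threshold. With single libraries left out the log2 fold change ranged from 1.86 to 1.98 for DUSP5, from 1.48 to 1.82 for DUSP6, from 0.67 to 0.98 for SPRY4, from -1.01 to -0.93 for SPRY1 and from -0.12 to -0.01 for SPRED1. DUSP8 turned from 1.28 to -0.70 without Y-320 replicate 1, in a leave-one-out range of -0.70 to 1.75, since 112.2 of its counts lie in that library. Of all genes tested, 1400 were higher and 1207 lower when the fold change also had to reach 0.5 in size on the log2 scale, against 4336 and 4210 without it. DESeq2 called 3835 higher and 3697 lower. Among 204 counts of gene lists, 23 moved by over 1.5 times. Scaling to library totals or by the upper quartile shifted the median log2 fold change of all genes by 0.013 and -0.029. The row summed for DUSP16 and DUSP8 was an alternative chosen after seeing the data. It could hardly move their fold changes, since the summed rows hold the same values. SPRY1, SPRY4 and DUSP6, the scarcest of the 10 genes in CPM, had the widest SEs, of 0.11 to 0.16. How far depth or spread between libraries sets these SEs was not tested.

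Deviations of same-numbered libraries from their group means correlated at -0.014, 0.011 and -4e-04, within the range of -0.028 to 0.028 for libraries with different numbers. No shared effect of the replicate number was thus seen. Whether same-numbered libraries were handled together cannot be told from these values, since handling need not leave such a trace. With a replicate block, 4285 genes were higher and 4159 lower, and the 10 genes gave 8 higher and 1 lower as without it.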
